A study of Homo sapiens with 11 samples.

Results

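The 45 genes described here encode enzymes and regulators that remove superoxide and peroxides or use glutathione: superoxide dismutases (SOD), catalase (CAT), glutathione peroxidases (GPX), peroxiredoxins (PRDX), thioredoxins (TXN) and their reductases (TXNRD), glutathione transferases (GST and MGST), the enzymes that make and recycle glutathione, and the regulators NFE2L2 and KEAP1. They were picked by gene symbol, with earlier results of these data known, and are the 45 rows with such symbols among 19990 genes of the count table. The cells were cardiomyocytes made at passage 63 from WTC11, an established induced pluripotent line of human origin. One differentiation was driven by CHIR99021, which inhibits the kinase GSK3, and then by IWP2, which blocks secretion of Wnt proteins. Its parallel wells were afterwards fed B27 medium that contains insulin. Poly(A) RNA was sequenced from 4 wells taken on Day 30, 3 wells taken on Day 60 and 4 taken on Day 113, which differ by no other treatment in the labels. Because every well came from the same differentiation, the p-values measure only the spread between these wells, and day of culture and day of collection cannot be told apart. The purity of the cultures was checked by the submitters on Day 16 by flow cytometry for cardiac troponin T, and no such measure at the 3 collections was used here.

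Superoxide leaking from respiration is turned into hydrogen peroxide by the superoxide dismutases, and the peroxide is then removed by catalase, by glutathione peroxidases at the expense of glutathione, and by peroxiredoxins at the expense of thioredoxin. Glutathione reductase and the thioredoxin reductases restore both donors with NADPH, and the glutathione transferases attach glutathione to reactive carbonyls and foreign compounds. NRF2, the protein of NFE2L2, switches on many of these genes, and KEAP1 marks it for degradation until oxidants or electrophiles modify KEAP1. Heart muscle is rich in mitochondria, and the mitochondrial enzymes SOD2, PRDX3, TXN2 and TXNRD2 form its local defence.

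The glutathione peroxidases divide into 2 kinds by a single codon, shown here because the 2 cysteine-type members described below both fell over the culture. Whether the codon has a part in that fall was not tested. In GPX1 to GPX4 the catalytic residue is selenocysteine, encoded by TGA, which elsewhere is a stop codon. At the aligned position GPX7 and GPX8 carry TGC, a cysteine codon. The stretches are coding sequence from GENCODE version 29 (GRCh38), read 5′ to 3′ on the gene's strand, with the catalytic codon in capitals.
GPX3: gtggccagctacTGAggcctgacgggccag
GPX1: gtggcgtccctcTGAggcaccacggtccgg
GPX4: gtggcctcccagTGAggcaagaccgaagta
GPX7: gtggccagcgagTGCggcttcacagaccag
GPX8: gtggccagtgacTGCcaactcacagacaga
The codon of GPX3 lies at chr5:151025469-151025471 on the plus strand and is codon 73 of 226. For GPX7 the codon was located by alignment to GPX3 and lies at chr1:52606714-52606716 (plus strand, codon 57 of 187), and for GPX8 at chr5:55161024-55161026 (plus strand, codon 79 of 209). The thioredoxin reductases also use selenocysteine, as the last residue but one of the protein, and their sequences are given for the same comparison up to the final coding codon.
TXNRD1: caggctggctgcTGAggt
TXNRD2: gtgacaggctgcTGAggg
TXNRD3: cagaaaggctgcTGAggc
The TGA of TXNRD1 is codon 498 of 499 (chr12:104348413-104348415, plus strand), that of TXNRD2 codon 523 of 524 (chr22:19877111-19877113, minus strand) and that of TXNRD3 codon 642 of 643 (chr3:126607911-126607913, minus strand).

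NRF2 binds with a small MAF protein to the antioxidant response element, whose core is TGACNNNGC. That core was searched on both strands of the RefSeq promoter windows (GRCh38.p14, from 250 bases before to 50 after each start), and 8 of the 35 genes with a window held it (22.9%). Among genes of the count table with a window the share was 18.8% (2569 of 13692), and among all 35116 windows it was 13.3%. Matches below are shown for 5 genes with roles in this pathway, with the core in capitals and the gene's strand 5′ to 3′, so that a core on the opposite strand appears as its reverse complement.
GCLM: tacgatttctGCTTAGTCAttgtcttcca
GSTP1: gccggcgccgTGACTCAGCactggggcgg
KEAP1: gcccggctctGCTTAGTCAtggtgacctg
MGST1: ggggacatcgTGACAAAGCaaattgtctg
TXNRD1: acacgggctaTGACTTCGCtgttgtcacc
The cores began 34 bases before a start of GCLM, 66 before one of GSTP1, 31 before one of KEAP1, 99 before one of TXNRD1, and after the start in MGST1. The other 3 genes with a match were GPX2, GSTA4 and GSTO1. A match was present in 2 of 9 genes that were higher at Day 113 than at Day 30 (22.2%), in 2 of 7 that were lower (28.6%) and in 4 of 19 that were not called (21.1%). GSR, GSS, GSTT1, GSTT2, HMOX1, MGST2, PRDX1, PRDX6, SOD1 and TXN2 had no entry in the promoter table.

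Libraries held 24.1 to 34.5 M counts each (M, units of 1000000), and levels are given as counts per M counts (CPM) after TMM scaling, as mean ± SD over wells. All 10 cardiomyocyte markers listed were detected, and their summed level was 34142 to 49255 CPM over the 11 wells. Of the 45 genes, all passed the filter on low counts, 38 averaged at least 10 CPM over the wells, and 5 (GPX2, GSTO2, GSTT2, HMOX1 and NQO1) stayed under 5 CPM on every day. Genes were called with the edgeR quasi-likelihood F-test at a Benjamini-Hochberg adjusted p under 0.05 over all 19990 genes, and every adjusted p below is from that test. Of the 10 cardiomyocyte markers, 3 were called higher and 2 lower at Day 113 than at Day 30, where 17.3% and 17.2% of all genes were. The 2 called lower were MYH7, the most abundant of the 10, from 15412 to 9277 CPM, and ACTN2, from 1710 to 1100. The 3 called higher were TNNC1, from 1115 to 2293 CPM, TNNT2, from 2748 to 4334, and TNNI1, from 3812 to 5038. In bulk RNA, fewer cells of a type and less RNA per cell cannot be told apart, and this holds for each fall or rise below.

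Between Day 30 and Day 60, 4 of the 45 genes changed (8.89%), against 10.3% of all genes. Glutathione peroxidase 3 (GPX3), glutathione synthetase (GSS) and SOD2 were higher and the membrane transferase MGST1 was lower, where 4.39% of all genes were higher and 5.91% lower. Between Day 60 and Day 113, 13 changed (28.9%, against 24% of all genes), 10 of them higher and 3 lower, where 12.9% of all genes were higher and 11.1% lower. From Day 30 to Day 113, 21 changed (46.7%, against 34.5% of all genes), 14 higher and 7 lower, where 17.3% and 17.2% of all genes were higher and lower. Genes at 10 CPM or more are called more often. Among those, the share from Day 30 to Day 113 was 52.6% of 38 for the antioxidant genes and 45.2% of 10356 for all. Higher and lower were 34.2% and 18.4% of these antioxidant genes, and 23.6% and 21.7% of all genes at this level. Between Day 60 and Day 113 the share was 31.6% of the antioxidant genes against 33.7% of all. Between Day 30 and Day 60 it was 10.5% against 13.6%. The median log2 fold change of the 45 genes from Day 30 to Day 113 was 0.06, against -0.02 for all genes, so the changes ran in both directions around a centre near 0.

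**Figure D1:**
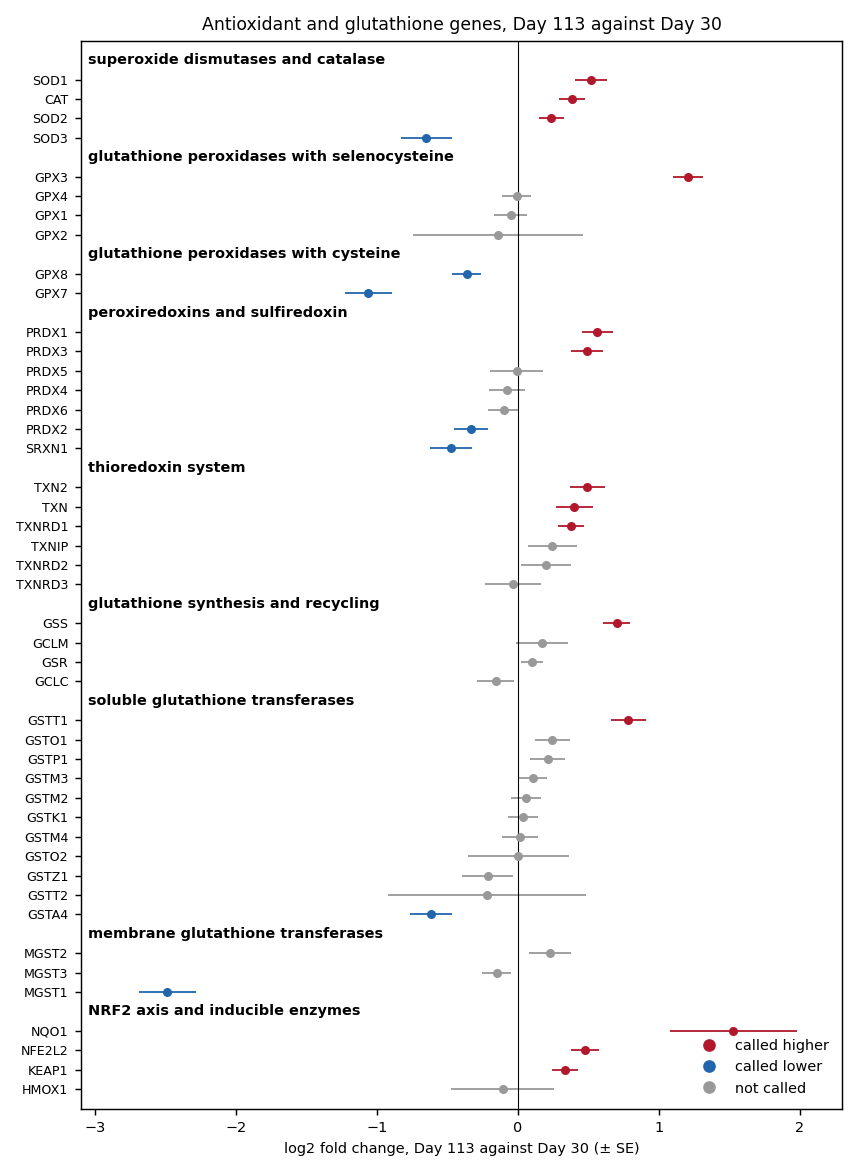
Log2 fold change from Day 30 to Day 113 (horizontal axis, ± SE) for the 45 genes, grouped by role, with the genes called higher in red, called lower in blue and not called in grey. The fall of MGST1 (-2.49) and the rises of NQO1 (1.53) and GPX3 (1.21) stand outside the range of the other genes, of which GPX7 (-1.06) lies farthest from 0.

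Of the 21 genes, 17 changed by less than 2-fold. The 4 that changed by 2-fold or more were GPX3, GPX7, MGST1 and NQO1. The wells of Day 30 and Day 113 did not overlap for 20 of the 45 genes of the family, all of them called, and for 35.1% of all genes tested. PRDX2 was called although its wells overlapped. The call from Day 30 to Day 113 held under each of 20 alternative settings, which include leaving out each well in turn, for 16 of the 21 genes. The 5 exceptions were GPX8, PRDX2, SOD2, SRXN1 and TXN. Counting any pair of days, 23 genes were called at least once and 22 were not called at all. The shares of all genes called in any pair of days, or called under every setting, were not taken. These counts are therefore not a trait of the family.

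The superoxide dismutases divided by location. SOD1, the dismutase of the cytosol (chr21:31659622-31668931, plus strand), read 102, 115, 108 and 108 CPM in the Day 30 wells, 116, 129 and 128 at Day 60, and 130.1, 196, 138 and 156 at Day 113. Each later day lay wholly above the earlier one, and the highest well was Day 113 replicate 2. From Day 30 to Day 113 the rise was 0.52 ± 0.11 on the log2 scale (1.43-fold, adjusted p 0.00215), and neither interval alone was called. SOD3, the dismutase secreted to the extracellular matrix (chr4:24789912-24800842, plus strand), read 28.2, 44.5, 35.5 and 31.6 CPM at Day 30, 32.5, 20.6 and 24.9 at Day 60, and 20.2, 27.5, 24.3 and 17.2 at Day 113. All 4 Day 113 wells of SOD3 lay below all Day 30 wells, by a narrow gap between 27.5 and 28.2 CPM. It fell by 0.65 on the log2 scale (SE 0.18, 1.57-fold lower, adjusted p 0.00968).

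SOD2, the dismutase of the mitochondrial matrix (chr6:159669057-159745186, minus strand), read 242, 241, 241 and 244 CPM at Day 30, 336, 288 and 316 at Day 60, and 254, 301, 272 and 311 at Day 113. Both later days lay above all Day 30 wells and overlapped each other. By Day 60 it had risen 0.37 ± 0.09 on the log2 scale (1.29-fold, adjusted p 0.0185), a call that was lost without Day 30 replicate 3, Day 60 replicate 1 or Day 60 replicate 3. At Day 113 it was 1.18-fold above Day 30 at an adjusted p of 0.0497, and this call held in 9 of 20 alternative settings. It was lost without any single Day 30 well, without Day 60 replicate 2, and without Day 113 replicate 2, 3 or 4. Exons of SOD2 overlap those of WTAP, and whether counting used strand is not given in the sources used here. Catalase, the peroxisomal enzyme that splits hydrogen peroxide (chr11:34438925-34472062, plus strand), read 49.5, 49.5, 57.2 and 50.1 CPM at Day 30, 49.7, 58.4 and 55.8 at Day 60, and 61.9, 69.4, 69.8 and 67.8 at Day 113. The first 2 days overlapped, and the Day 113 wells lay above both. CAT rose 0.38 ± 0.09 from Day 30 to Day 113 (1.30-fold, adjusted p 0.00405). Its call between Day 60 and Day 113 (adjusted p 0.0375) held in 13 of 20 settings, and was lost without Day 30 replicate 2, Day 60 replicate 1 or 3, or Day 113 replicate 3 or 4.

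The selenocysteine peroxidases differed from each other over the culture. GPX3 (chr5:151020438-151028993, plus strand), the secreted enzyme known as plasma glutathione peroxidase, read 27.8, 31.8, 31.9 and 30.0 CPM at Day 30, 57.3, 53.0 and 41.6 at Day 60, and 66.0, 76.1, 70.5 and 67.8 at Day 113. The 3 days did not overlap. GPX3 rose 0.74 ± 0.11 by Day 60 (1.67-fold, adjusted p 0.00068) and a further 0.47 ± 0.12 by Day 113 (1.39-fold, adjusted p 0.00778). Over the whole course the rise was 2.31-fold (log2 1.21 ± 0.11, adjusted p 6.06e-07), and GPX3 and MGST1 were the only 2 of the 45 genes called in both intervals.

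The other selenocysteine peroxidases were not called in any pair of days. GPX1, the abundant cytosolic form (chr3:49357171-49358600, minus strand), read 111, 113, 121 and 114 CPM at Day 30, 104, 109 and 101 at Day 60, and 95.8, 140.3, 91.7 and 114 at Day 113. Its Day 113 wells spanned the range of both earlier days. GPX4, which reduces lipid peroxides in membranes and guards against ferroptosis (chr19:1103926-1106791, plus strand), read 215, 205, 203 and 208 CPM at Day 30, 227, 215 and 213 at Day 60, and 179, 255, 194 and 198 at Day 113. As with GPX1, Day 113 replicate 2 was the highest well, and the Day 113 wells overlapped those of both earlier days. GPX2, an epithelial form (chr14:64939152-64942905, minus strand), was near the limit of detection, with 0.420, 0.467, 0.954 and 1.41 CPM in the Day 30 wells, 0.926, 0.737 and 1.96 at Day 60, and 1.04, 0.637, 0.314 and 0.963 at Day 113. Its days overlapped. Per kilobase of exon, GPX4 was the higher of GPX4 and GPX1 at Day 30 (103 ± 2.75 against 80.1 ± 3.08 CPM per kb, SD, n = 4). At Day 113 GPX4 was again the higher in mean (102 ± 16.5 against 77.2 ± 15.5) and in each well.

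Both peroxidases with cysteine in place of selenocysteine were lower at Day 113 than at Day 30, where 17.2% of all genes were. With 2 genes this is a small count, and the grouping was made after the values were seen. GPX7 and GPX8 reside in the endoplasmic reticulum, where they use peroxide formed during protein folding. GPX7 (chr1:52602372-52609051, plus strand) read 16.5, 17.5, 20.2 and 16.8 CPM at Day 30, 10.9, 17.0 and 13.3 at Day 60, and 7.50, 10.1, 8.99 and 7.38 at Day 113. All Day 113 wells lay below every well of the 2 earlier days. GPX7 fell by 1.06 on the log2 scale over the course (SE 0.17, 2.09-fold lower, adjusted p 0.000147), and by 0.69 between Day 60 and Day 113 (adjusted p 0.0106, lost without Day 60 replicate 2). GPX8 (chr5:55160118-55167071, plus strand) read 104, 126, 108 and 96.4 CPM at Day 30, 89.6, 91.1 and 104 at Day 60, and 86.7, 94.7, 82.1 and 73.7 at Day 113. Its Day 113 wells lay below all Day 30 wells, with Day 60 overlapping both. The fall was 0.36 on the log2 scale (SE 0.10, 1.29-fold lower, adjusted p 0.0129), and it was no longer called without Day 30 replicate 2. PRDX4, the peroxiredoxin of the same compartment, was not called, at 65.3 to 74.5 CPM on Day 30 and 53.6 to 79.6 on Day 113.

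**Figure D2:**
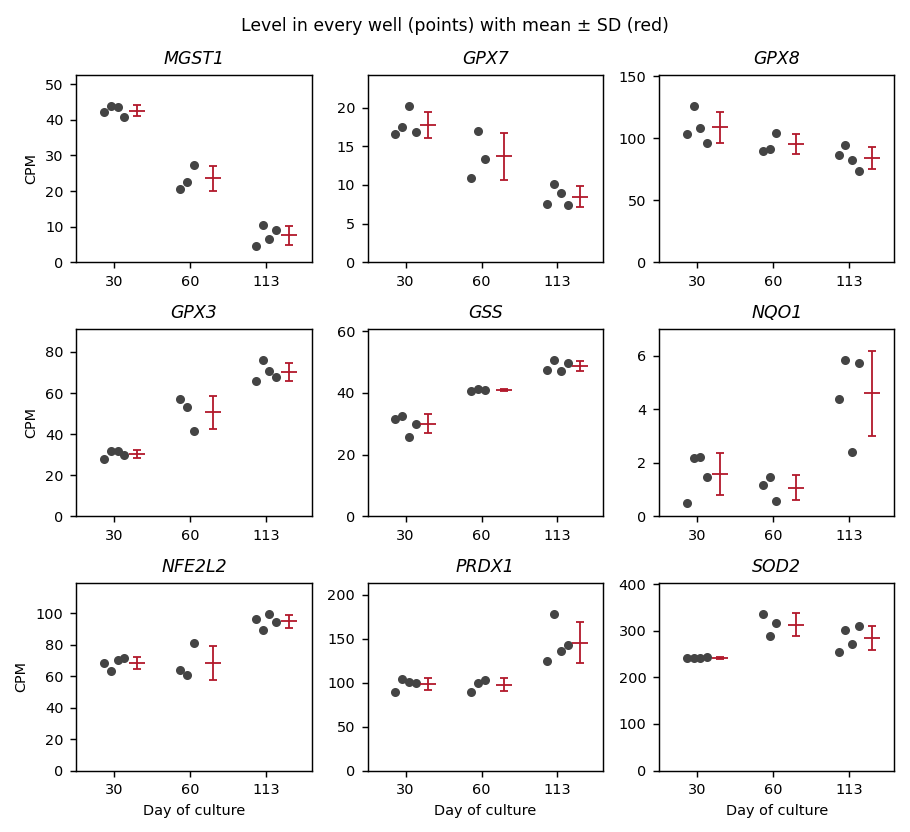
Level in CPM (vertical axes from 0) in each well by day of culture for 9 of the genes, with red bars for the mean and SD. MGST1 falls from 42.6 to 23.6 and 7.63 CPM and GPX3 rises from 30.4 to 50.6 and 70.1 CPM without overlap of the days, while the NQO1 wells of Day 113 lie between 2.42 and 5.85 CPM.

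Among the peroxiredoxins, 2 rose, 1 fell and 3 were not called, and sulfiredoxin fell. Of these 7 genes 28.6% were higher and 28.6% lower, against 17.3% and 17.2% of all genes. PRDX1, a cytosolic peroxiredoxin (chr1:45511036-45523047, minus strand), read 89.0, 104, 101 and 99.7 CPM at Day 30, 89.0, 100.01 and 103 at Day 60, and 124, 178, 137 and 143 at Day 113. The first 2 days were alike in range, and every Day 113 well lay above both. PRDX1 was 1.48-fold higher at Day 113 than at Day 30 (log2 0.56 ± 0.11, adjusted p 0.000805) and 1.49-fold higher than at Day 60 (adjusted p 0.00233). Its exons overlap MMACHC. PRDX3, which works in the mitochondrial matrix (chr10:119167703-119178833, minus strand), read 142, 161, 162 and 168 CPM at Day 30, 185, 182 and 179 at Day 60, and 170.0, 271, 219.8 and 227 at Day 113. Its lowest Day 113 well was 170.0 CPM, just above the highest Day 30 well. PRDX3 rose 0.49 ± 0.12 over the course (1.40-fold, adjusted p 0.00387), with neither interval called.

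PRDX2, the other main cytosolic peroxiredoxin (chr19:12796820-12801859, minus strand), read 379, 402, 347 and 342 CPM at Day 30, 373, 329.8 and 342 at Day 60, and 248, 378, 263 and 279 at Day 113. Day 113 replicate 2 lay among the Day 30 wells and the other 3 Day 113 wells lay below them. The fall of 0.33 on the log2 scale (SE 0.12, adjusted p 0.0411) was called in 10 of 20 alternative settings, and was kept without Day 30 replicate 4 or Day 113 replicate 2 but lost without any other single well. SRXN1, sulfiredoxin, which repairs over-oxidised peroxiredoxins (chr20:646615-653370, minus strand), read 24.7, 21.0, 22.4 and 18.9 CPM at Day 30, 20.6, 19.9 and 16.1 at Day 60, and 17.5, 18.3, 14.2 and 12.6 at Day 113. The Day 113 wells lay below all Day 30 wells, the closest being 18.3 against 18.9 CPM. SRXN1 fell by 0.48 on the log2 scale (SE 0.15, 1.39-fold lower, adjusted p 0.0203), a call lost without Day 30 replicate 1, Day 113 replicate 3 or Day 113 replicate 4. PRDX5 and PRDX6 were not called. PRDX5, found in mitochondria and peroxisomes, ranged from 145 to 165 CPM at Day 30, 126 to 179.6 at Day 60 and 97.6 to 232 at Day 113. PRDX6, which uses glutathione as its donor, ranged from 199.8 to 219 CPM at Day 30, 177 to 181 at Day 60 and 169 to 248 at Day 113. Its Day 60 wells lay below all Day 30 wells at an adjusted p of 0.21. Per kilobase of exon, PRDX5 (172 ± 63.2 CPM per kb at Day 113) and PRDX2 (140 ± 28.0) were the most abundant peroxiredoxins, and their spreads overlapped.

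The thioredoxin system held 3 genes of 6 that rose over the course and none that fell. With so few genes this is a small count, and 17.3% of all genes were higher and 17.2% lower. TXN, the cytosolic thioredoxin (chr9:110243811-110256640, minus strand), read 35.5, 42.1, 42.9 and 40.0 CPM at Day 30, 34.8, 34.7 and 46.3 at Day 60, and 52.1, 65.5, 43.4 and 50.9 at Day 113. Its lowest Day 113 well, 43.4 CPM, was within 1 CPM of the highest Day 30 well. TXN rose 0.40 ± 0.13 (1.32-fold, adjusted p 0.0277), which was lost without Day 30 replicate 1, Day 30 replicate 4 or Day 113 replicate 2. TXN2, the mitochondrial thioredoxin (chr22:36467036-36482030, minus strand), read 55.2, 53.6, 54.4 and 51.2 CPM at Day 30, 59.6, 59.9 and 60.9 at Day 60, and 58.5, 97.6, 70.6 and 74.9 at Day 113. Both later days lay above Day 30, and at Day 113 the wells ranged widely. TXN2 rose 0.49 ± 0.12 (1.41-fold, adjusted p 0.00521), in neither interval alone.

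TXNRD1, the cytosolic thioredoxin reductase (chr12:104215779-104350305, plus strand), read 83.2, 87.3, 86.3 and 98.7 CPM at Day 30, 96.0, 92.6 and 87.4 at Day 60, and 99.5, 124, 118 and 121 at Day 113. Day 113 lay above both earlier days, with its lowest well within 1 CPM of the highest Day 30 well. TXNRD1 rose 0.38 ± 0.09 over the course (1.30-fold, adjusted p 0.00478). TXNRD2, the mitochondrial reductase (chr22:19875517-19941992, minus strand), read 17.9, 16.9, 18.4 and 19.0 CPM at Day 30, 13.4, 16.4 and 12.2 at Day 60, and 14.2, 28.4, 20.5 and 19.98 at Day 113. Its Day 60 wells were all below its Day 30 wells, and its Day 113 wells overlapped those of both other days. The 1.48-fold difference between Day 60 and Day 113 (log2 0.57 ± 0.19, adjusted p 0.0417) was called in 8 of 20 alternative settings. It was lost without each single well other than Day 60 replicate 2 and Day 113 replicate 1. Day 113 against Day 30 was not called (adjusted p 0.42).

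TXNRD3, a reductase known from testis (chr3:126571779-126655155, minus strand), read 8.06, 7.71, 6.84 and 5.39 CPM at Day 30, 6.89, 8.48 and 7.29 at Day 60, and 6.21, 5.40, 7.07 and 8.62 at Day 113. Its days overlapped and it was not called. TXNIP, the protein that binds and inhibits thioredoxin, was the most abundant of the 45 genes in CPM on each day, with means ± SD of 499 ± 124 on Day 30, 589 ± 91.5 on Day 60 and 591 ± 141 on Day 113. It was not called in any pair of days, with a spread of 366 to 649 CPM within Day 30 alone. Per kilobase of exon TXNIP was also the most abundant gene of the thioredoxin system, at 163 ± 39.0 CPM per kb at Day 113, followed by TXN at 46.4 ± 8.07.

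Glutathione synthesis changed at its second step and not detectably at its first. Glutamate-cysteine ligase, the rate-limiting enzyme, has a catalytic subunit (GCLC) and a modifier subunit (GCLM), and glutathione synthetase (GSS) then adds glycine. GSS (chr20:34928433-34956027, minus strand) read 31.7, 32.6, 25.7 and 30.0 CPM at Day 30, 40.6, 41.3 and 40.9 at Day 60, and 47.4, 50.7, 47.2 and 49.7 at Day 113. The 3 days did not overlap, and the 3 Day 60 wells lay within 1 CPM of each other. It rose 0.45 ± 0.10 by Day 60 (1.36-fold, adjusted p 0.0108) and 0.70 ± 0.10 by Day 113 (1.62-fold, adjusted p 4.55e-05). Both calls held in 20 of 20 alternative settings.

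GCLC (chr6:53497341-53616970, minus strand) read 29.8, 30.2, 27.6 and 26.0 CPM at Day 30, 24.2, 27.3 and 28.7 at Day 60, and 19.97, 25.1, 31.2 and 25.4 at Day 113. GCLM (chr1:93885205-93909456, minus strand) read 8.29, 10.9, 10.8 and 8.55 CPM at Day 30, 9.35, 8.22 and 8.42 at Day 60, and 13.5, 12.3, 9.67 and 7.98 at Day 113. The days of both ligase subunits overlapped throughout. Neither was called from Day 30 to Day 113, with log2 fold changes of -0.16 ± 0.13 for GCLC (adjusted p 0.39) and 0.17 ± 0.18 for GCLM (adjusted p 0.53). GSR, glutathione reductase, which returns oxidised glutathione to its reduced form, read 79.6, 80.0, 75.9 and 79.3 CPM at Day 30, 81.4, 83.6 and 81.6 at Day 60, and 82.0, 91.7, 84.8 and 78.9 at Day 113. The Day 30 and Day 113 wells of GSR overlapped and it was not called (log2 0.10 ± 0.08 over the course, adjusted p 0.37).

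**Figure D3:**
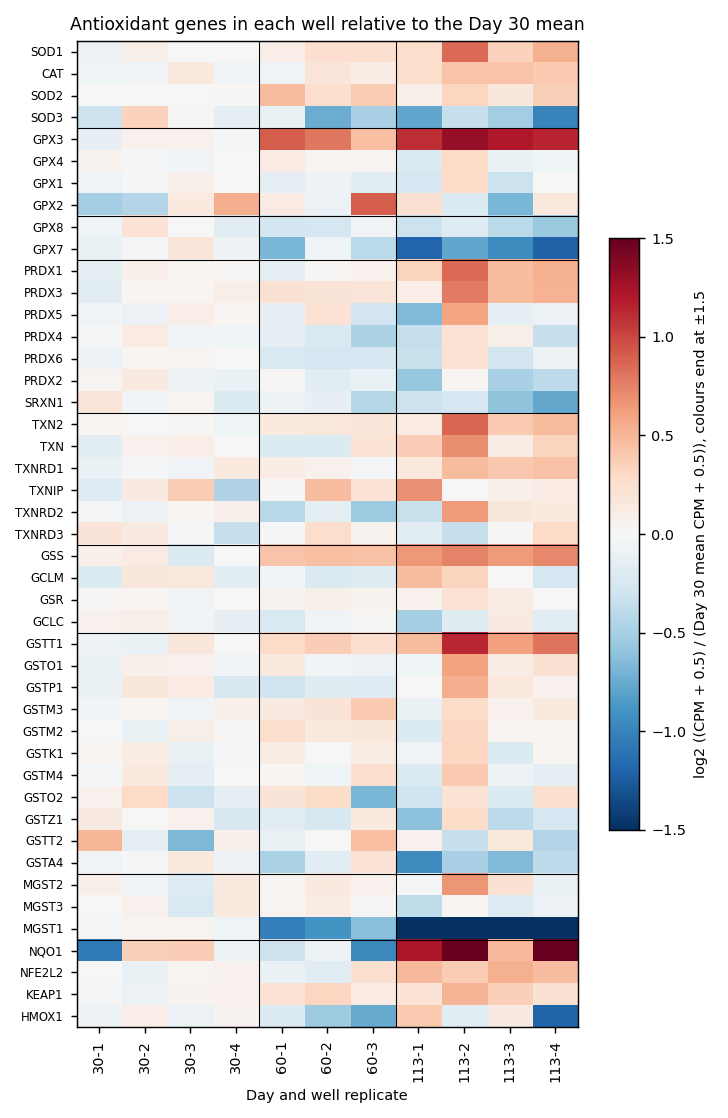
Each of the 45 genes (rows, grouped by role) in each of the 11 wells (columns, day and replicate), coloured by log2 of its level over the Day 30 mean with 0.5 CPM added to both, and with colours ending at 1.5 in either direction. Day 113 replicate 2 is the highest Day 113 well for 33 of the 45 genes, and the rows of MGST1, GPX3 and GPX7 change in every Day 113 well.

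Of the soluble glutathione transferases, 1 of 11 was higher and 1 lower over the course (9.09% each, against 17.3% and 17.2% of all genes). GSTT1, a theta-class enzyme, read 36.9, 36.3, 43.8 and 38.9 CPM at Day 30, 47.8, 50.3 and 46.2 at Day 60, and 54.3, 85.7, 60.1 and 68.1 at Day 113. The 3 days did not overlap. The rise was 0.78 ± 0.13 over the course (1.72-fold, adjusted p 0.000183) and 0.48 ± 0.14 between Day 60 and Day 113 (1.39-fold, adjusted p 0.0181, lost without Day 60 replicate 1 or Day 60 replicate 3). The position of GSTT1 was not analysed here. GSTA4, which conjugates 4-hydroxynonenal, a product of lipid peroxidation (chr6:52977948-52995378, minus strand), read 35.7, 36.6, 41.0 and 35.0 CPM at Day 30, 26.6, 32.9 and 42.9 at Day 60, and 19.1, 26.3, 23.3 and 28.2 at Day 113. Day 113 lay below Day 30 in every well, and Day 60 overlapped both. GSTA4 fell by 0.62 on the log2 scale (SE 0.15, 1.53-fold lower, adjusted p 0.00451).

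GSTP1, the pi-class enzyme (chr11:67583595-67586656, plus strand), read 201, 244, 236 and 184 CPM at Day 30, 175, 191 and 189.5 at Day 60, and 215, 316, 242 and 226 at Day 113. Its Day 60 wells lay below all Day 113 wells, and Day 30 overlapped both. It was 1.35-fold higher at Day 113 than at Day 60 (log2 0.43 ± 0.13, adjusted p 0.0274), which was lost without any single Day 60 well or without Day 113 replicate 2, and was not called against Day 30 (adjusted p 0.21). Per kilobase of exon GSTP1 was the most abundant soluble transferase of the 10 with a length on each day, at 113 ± 14.9 CPM per kb at Day 30 and 131 ± 23.9 at Day 113. The other 8 soluble transferases were not called in any pair of days. GSTK1, GSTM2, GSTM3, GSTM4, GSTO1 and GSTZ1 kept within 11.4 to 107 CPM over all wells, while GSTO2 and GSTT2 did not exceed 2.80 CPM in any well. GSTM3 was at 77.6 to 86.0 CPM on Day 30, 89.0 to 107 on Day 60 and 75.7 to 98.9 on Day 113, so that its Day 60 wells lay above all Day 30 wells without passing the test (adjusted p 0.17). GSTO1, an omega-class enzyme that reduces mixed disulfides, ranged from 49.4 to 56.2 CPM at Day 30 and from 51.0 to 81.2 at Day 113 (adjusted p 0.15). GSTM2 and GSTM4 have overlapping exons, and reads of the near-identical GSTM genes, and of GSTT2 and its copy GSTT2B, could have been split between copies, so these levels are uncertain.

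MGST1 had the largest change of the 45 genes. It is the microsomal glutathione transferase that also reduces lipid hydroperoxides, and it is known to be abundant in liver (chr12:16347142-16609259, plus strand). The wells read 42.1, 43.9, 43.7 and 40.7 CPM at Day 30, 20.6, 22.7 and 27.4 at Day 60, and 4.56, 10.5, 6.42 and 8.99 at Day 113. Every well of a later day lay below every well of the earlier one. MGST1 fell by 0.85 on the log2 scale by Day 60 (SE 0.21, 1.81-fold lower, adjusted p 0.0148) and by a further 1.64 by Day 113 (SE 0.21, 3.11-fold lower, adjusted p 6.54e-05). Over the course the fall was 5.61-fold (log2 -2.49 ± 0.20, adjusted p 2.21e-07). The first of these calls was lost without Day 60 replicate 1 or Day 60 replicate 2, and the other 2 held in 20 of 20 alternative settings.

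Of the 9 hepatic and endoderm markers in the table, 8 were lower than at Day 30 on both later days, and none was at 0 in every well. Their summed level was 412 to 1199 CPM in the Day 30 wells, 44.8 to 54.2 at Day 60 and 26.2 to 44.7 at Day 113. Of 10 epithelial markers, 8 were lower than at Day 30 on both later days, with sums of 2189 to 3204 CPM, 1296 to 1480 and 1179 to 1968. Over all genes, 5.91% were lower than at Day 30 on Day 60 and 17.2% on Day 113. Between Day 60 and Day 113, 3 of the 9 hepatic and endoderm markers were lower and 1 higher. Of the epithelial markers 3 were lower and 2 higher in that interval, where 11.1% of all genes were lower and 12.9% higher. The part of these cells in the fall of MGST1 was not tested. MGST2 and MGST3, the related enzymes of leukotriene metabolism, were not called in any pair of days. MGST3 read 174 to 228 CPM at Day 30 and 157 to 209.5 at Day 113, and MGST2 30.5 to 38.5 and 32.4 to 55.6.

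NFE2L2 and KEAP1 both rose. NFE2L2 (chr2:177227595-177392697, minus strand) read 68.3, 63.2, 70.5 and 71.5 CPM at Day 30, 63.9, 61.0 and 81.1 at Day 60, and 96.3, 89.3, 99.6 and 94.5 at Day 113. Days 30 and 60 overlapped, and all Day 113 wells lay above both, with Day 113 replicate 2 the lowest of them. NFE2L2 was 1.38-fold higher at Day 113 than at Day 60 (log2 0.47 ± 0.11, adjusted p 0.00507) and 1.39-fold higher than at Day 30 (log2 0.47 ± 0.10, adjusted p 0.00142). Its exons overlap AGPS. KEAP1 (chr19:10486120-10503741, minus strand) read 54.3, 52.0, 57.4 and 57.7 CPM at Day 30, 64.2, 69.3 and 60.4 at Day 60, and 63.7, 79.0, 71.0 and 65.2 at Day 113. Both later days lay above Day 30 and overlapped each other. KEAP1 rose 0.33 ± 0.09 over the course (1.26-fold, adjusted p 0.0109), and in neither interval alone.

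NQO1 and HMOX1, enzymes widely used as readouts of NRF2 activity, were both scarce. NQO1, a quinone reductase (chr16:69706996-69726951, minus strand), read 0.497, 2.17, 2.20 and 1.48 CPM at Day 30, 1.18, 1.47 and 0.568 at Day 60, and 4.39, 5.85, 2.42 and 5.74 at Day 113. The Day 113 wells lay above all others, with replicate 3 at 2.42 CPM close to the Day 30 range. From Day 60 to Day 113 NQO1 was 4.28-fold higher (log2 2.10 ± 0.51, adjusted p 0.00777), and from Day 30 it was 2.88-fold higher (log2 1.53 ± 0.45, adjusted p 0.0152). These values rest on 819 counts over the 11 wells, with 13 in the lowest. HMOX1, heme oxygenase 1, was not called, at 2.83 to 3.30 CPM on Day 30, 1.61 to 2.59 on Day 60 and 1.04 to 4.16 on Day 113. From Day 30 to Day 113, NQO1, PRDX1, TXN and TXNRD1 rose, SRXN1 fell, and GCLC, GCLM and HMOX1 were not called. These genes are examples. No list of NRF2 targets within the family was drawn up, so a change of such targets as a group was not tested.

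Endothelial markers rose with these genes at Day 113. All 10 were higher at Day 113 than at either earlier day, and their sum was 63.0 to 94.0 CPM at Day 30, 43.5 to 72.8 at Day 60 and 232 to 928 at Day 113. Of 10 fibroblast and epicardial markers, 6 were higher and 2 lower at Day 113 than at Day 30, with sums of 3457 to 7812 CPM at Day 30, 2269 to 3714 at Day 60 and 5609 to 13254 at Day 113. Of 7 smooth muscle and pericyte markers in the table, 4 were higher and none lower at Day 113 than at Day 30. The shares over all genes were 17.3% higher and 17.2% lower. No marker of these 3 lists was at 0 in every well. Their part in the rises of the antioxidant genes was not tested.

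**Figure D4:**
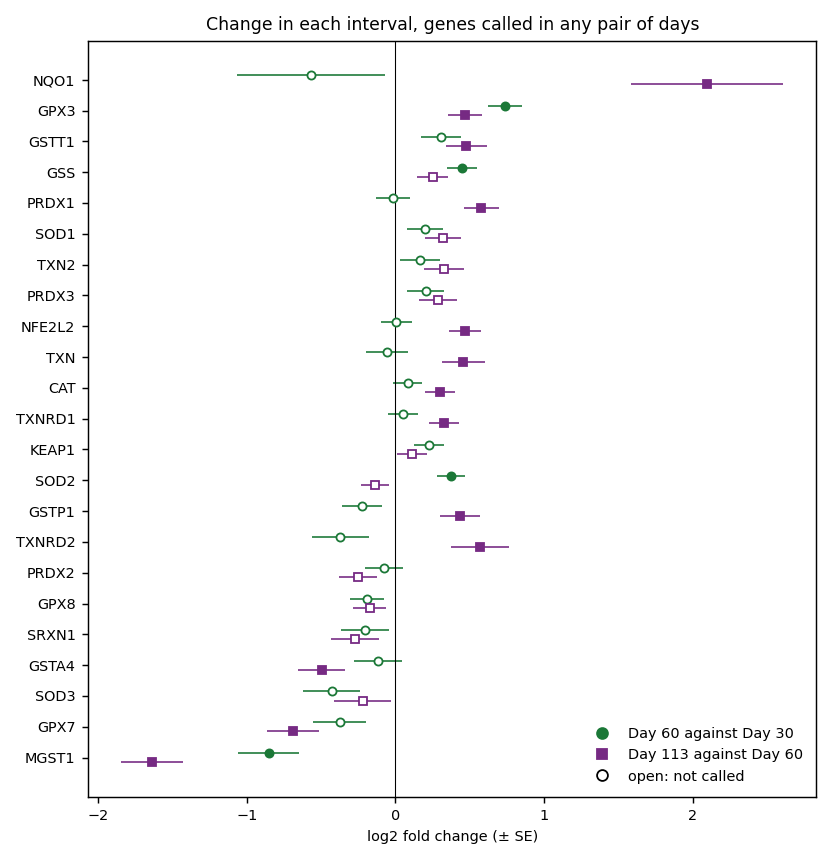
Log2 fold change (horizontal axis, ± SE) from Day 30 to Day 60 (green circles) and from Day 60 to Day 113 (purple squares) for the 23 genes called in at least 1 pair of days, with filled symbols where called. GPX3 and MGST1 are filled in both intervals, GSS and SOD2 in the first alone, and 11 genes in the second alone.

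The 2 intervals held different numbers of calls, but no gene of the family differed between them in its own test. GSS and SOD2 were called in the first interval alone and 11 genes in the second alone: CAT, GPX7, GSTA4, GSTP1, GSTT1, NFE2L2, NQO1, PRDX1, TXN, TXNRD1 and TXNRD2. Over all genes, 10.3% were called in the first interval and 24% in the second. The shares of all genes called in both intervals or in a single one were not taken. Of the 13 calls between Day 60 and Day 113, those of GPX3, MGST1, NFE2L2, NQO1 and PRDX1 held in all 20 alternative settings. The 13 dropped to 7 without Day 60 replicate 1 or Day 60 replicate 3 and to 8 without Day 60 replicate 2, and the 4 calls between Day 30 and Day 60 dropped to 2 without Day 60 replicate 1. GPX8, KEAP1, PRDX2, PRDX3, SOD1, SOD3, SRXN1 and TXN2 were called over the whole course and in neither interval. The test of the difference between the intervals called 0 of 45 genes with edgeR, against 9.34% of all genes (4.97% with a more positive change in the second interval, 4.38% with a more negative one), with 7 at an unadjusted p under 0.05. DESeq2 called 2 (NQO1 and SOD2) and limma-voom 0. The 7 were GSTP1, MGST1, NFE2L2, NQO1, PRDX1, SOD2 and TXNRD2, of which SOD2 had the smallest adjusted p (0.0661) and rose in the first interval by 0.37 with a log2 fold change of -0.14 ± 0.09 in the second. The interval from Day 60 to Day 113 is also the longer one in days.

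Day 113 replicate 2 stood apart from the other wells of its day for this family. It was the highest Day 113 well for 33 of the 45 genes (73.3%), against 32.0% of all genes, and Day 113 replicate 1 was the lowest for 27 of the 45. The wells of Day 113 also differed by gene length. Among genes at 10 CPM or more, the median log2 level of replicate 2 over the other Day 113 wells was 0.27 in the lowest quartile of exon length and -0.23 in the highest. In replicate 1 the same medians were -0.15 and 0.13. Of the 37 antioxidant genes at 10 CPM or more with a length, 21 lay in the lowest length quartile, and their medians over the 37 genes were 0.39 in replicate 2 and -0.28 in replicate 1. Over all genes of the lowest length quartile the median log2 fold change from Day 30 to Day 113 was 0.10, and over the highest it was -0.05. The part of length in the results was not tested. Without Day 113 replicate 2, 21 of the 45 genes were again called over the course: SOD2 and TXN were lost, and GSTZ1 and PRDX6 were added. Between Day 60 and Day 113, TXN, GSTP1 and TXNRD2 were lost without it and PRDX2 was added.

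Genes that work beside the family were also divided between rises and falls from Day 30 to Day 113. The same held for all genes, of which 17.3% were higher and 17.2% lower. Of 10 NRF2 regulators, 5 were higher (50%) and 2 lower (20%). SQSTM1, whose product p62 takes up KEAP1, rose from 142 ± 6.68 (SD, n = 4) to 209 ± 14.4 CPM (log2 0.55 ± 0.08, adjusted p 8.85e-05). BACH1, a repressor of antioxidant response elements, fell from 66.2 ± 1.58 to 43.0 ± 8.57 CPM (log2 -0.62 ± 0.12, adjusted p 0.0011). Of 29 NRF2 target enzymes outside the family, 7 were higher and 7 lower (24.1% each). SLC7A11, the cystine importer that supplies glutathione synthesis, rose from 5.83 ± 1.56 to 10.9 ± 3.70 CPM (adjusted p 0.017), while ME1, a cytosolic source of NADPH, fell from 32.0 ± 3.43 to 16.0 ± 2.14 CPM (adjusted p 2.02e-05).

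Mitochondrial NADPH supply held 2 higher and 2 lower genes of 8 (25% each, against 17.3% and 17.2% of all genes). IDH2, the mitochondrial NADP-dependent isocitrate dehydrogenase, fell from 458 ± 41.5 to 289 ± 42.8 CPM (log2 -0.67 ± 0.11, adjusted p 0.0003). ALDH1L2, a mitochondrial folate enzyme that yields NADPH, was higher at Day 113 (20.5 ± 8.06 CPM) than at Day 30 (8.20 ± 3.24, adjusted p 0.00327). Glutathione transport and turnover held 5 higher (22.7%) and 7 lower genes (31.8%) of 22. SLC1A4, a transporter of neutral amino acids, rose from 81.3 ± 8.22 to 161 ± 17.6 CPM (adjusted p 3.6e-06), and GGT1, which breaks down extracellular glutathione, fell from 9.88 ± 0.864 to 5.74 ± 1.07 CPM (adjusted p 0.00406).

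Of 17 glutaredoxins, methionine sulfoxide reductases and related thioredoxin-fold genes, 9 were higher (52.9%) and 3 lower (17.6%), with a median log2 fold change of 0.29. The shares over all genes were 17.3% and 17.2%. GLRX2, the mitochondrial glutaredoxin, rose from 5.09 ± 0.992 to 10.3 ± 2.59 CPM (adjusted p 0.00308), and MSRA, which repairs oxidised methionine, from 9.73 ± 2.04 to 16.3 ± 3.50 CPM (adjusted p 0.0145). NXN, nucleoredoxin, fell from 134 ± 11.3 to 78.9 ± 9.30 CPM (adjusted p 2.26e-05). Of 20 tested genes for selenoprotein synthesis and other selenoproteins, 4 were higher (20%) and 2 lower (10%), near the shares over all genes. SEPHS1, a relative of the enzyme that supplies selenophosphate, rose from 46.3 ± 4.70 to 65.1 ± 4.46 CPM (adjusted p 0.000986), and SELENON, a selenoprotein of the endoplasmic reticulum known from muscle disease, fell from 174 ± 7.56 to 134 ± 18.0 CPM (adjusted p 0.00793).

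On the side of peroxide formation, 5 of 16 tested genes were higher (31.2%) and 2 lower (12.5%), against 17.3% and 17.2% of all genes. MAOA and MAOB, the mitochondrial monoamine oxidases that release hydrogen peroxide, both rose. MAOA went from 2.81 ± 0.498 CPM at Day 30 to 2.33 ± 0.957 at Day 60 and 17.8 ± 6.73 at Day 113 (log2 2.66 ± 0.30 over the course, adjusted p 5.47e-06). MAOB went from 3.70 ± 0.495 to 9.85 ± 3.72 CPM (log2 1.41 ± 0.26, adjusted p 0.000502). CYBA, the membrane subunit p22phox of the NADPH oxidases, fell from 38.3 ± 6.35 to 18.4 ± 7.20 CPM (log2 -1.06 ± 0.21, adjusted p 0.000891).

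**Figure D5:**
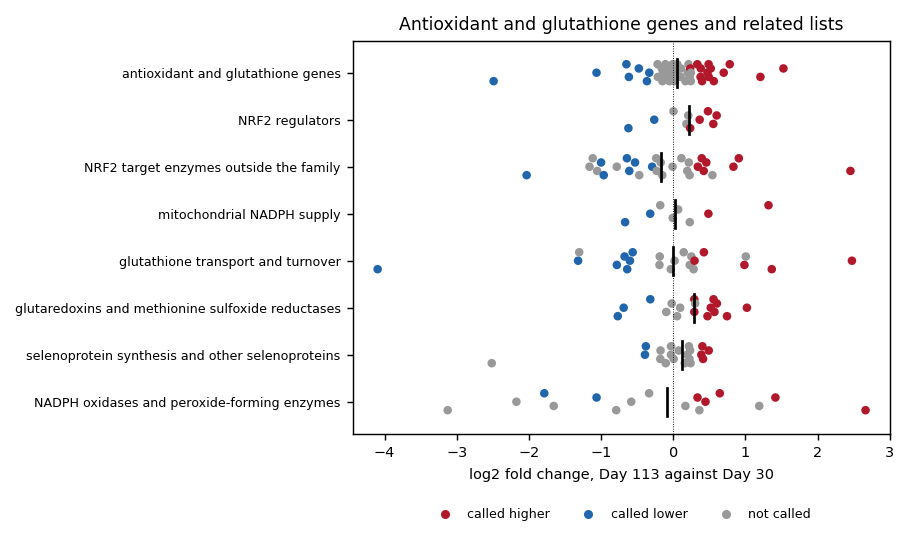
Log2 fold change from Day 30 to Day 113 (horizontal axis) of each gene in the antioxidant and glutathione family and in 7 lists of related genes (rows), coloured by call, with a black bar at each list's median. The medians run from -0.17 for NRF2 target enzymes outside the family to 0.29 for glutaredoxins and methionine sulfoxide reductases.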

How the data were processed

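Whole-number read counts per gene symbol in 11 libraries were deposited by the authors without normalization. The submitters' processing notes name STAR 2.5.3a, featureCounts 2.0.3 and hg38, and give no strand setting. A second table deposited by the authors holds TPM values. Its implied gene lengths were uncorrelated between libraries (median Spearman rho 0.00048 over 55 library pairs), so TPM values entered no result.

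Counts were fitted with edgeR 4.0.16 in R 4.3.3 (quasi-likelihood F-test, TMM factors 0.966 to 1.04), with 1 model for the 11 libraries and day as its single term. filterByExpr (minimum count 10) dropped none of the 19990 genes. Benjamini-Hochberg adjustment ran over all genes of a contrast. A standard error is the size of the log2 fold change over the root of its F. DESeq2 1.42.0 and limma 3.58.1 (voom) served as alternatives, beside other scalings, filters, dispersions, a replicate block and leaving out each well. The fit was tested on simulated data.

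Wells of a day differed by more than counting noise (chi-square per degree of freedom 11.4 to 84.0), and each was counted as 1 sample. With 1 library per well, this check cannot tell differences between wells from differences between library preparations. Deviations of same-numbered wells were weakly and always positively correlated (r of 0.023 to 0.076 over 10 pairs). Differently numbered wells were not compared, so the check cannot exclude a weak pairing. The main fit used no pairing by number. Coordinates and exon lengths come from GENCODE 29 (GRCh38).

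The genes, related lists and markers were chosen with earlier results of these data known. The role groups and the look at gene length were chosen after the values were seen. Well values are printed for genes that were called and reached 1 CPM, and for the dismutases, catalase, thioredoxin reductases, GPX1 to GPX4, NFE2L2, KEAP1 and the glutathione synthesis genes. From each related list at most 2 rising and 2 falling genes are named, those with the largest change among called genes of at least 5 CPM, and some of these are left out. One overlap between annotated genes is not reported here.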

Additional observations from a re-analysis of the deposited data

Results flagged for a closer look

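Within the 4 wells of a day, 90 sets of values were examined for 1 well standing apart from the other 3 by a gap that chance would give in about 1 set in 20, and 2 did so. CAT in Day 30 replicate 3 was 57.2 CPM, where the other Day 30 wells held 49.5 to 50.1 CPM, and all Day 113 wells of CAT were above it. TXNIP in Day 113 replicate 1 was 801 CPM, where the other Day 113 wells held 496 to 542 CPM, inside the range of Day 30.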

How the results depend on the processing

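The counts of called genes, and the fold changes of the genes of the family, were recomputed under 20 alternatives. The exceptions were the difference between intervals (19) and the changes of GSTT2 (19), a gene the stricter filter leaves out. The related lists, cell type markers, levels per kilobase, promoter matches and medians by gene length were not recomputed. No called gene changed direction. Of 135 gene and comparison pairs, 32 were called under no setting and changed sign between settings, so the text gives no fold for them although the plots show them, a choice made after those values were seen. From Day 30 to Day 113 the count of called genes of the family was 17 to 21. Between Day 60 and Day 113 (13 with all wells) it was 8 with upper-quartile scaling (5 higher, 3 lower), 8 with only the 2 days compared, and 7 to 15 over left-out wells, the lowest without Day 60 replicate 1 or 3 (7 each) and replicate 2 (8). From Day 30 to Day 60 (4) it was 2 without Day 60 replicate 1 and 2 to 4 over left-out wells. For the difference between intervals (0) it was 1 with upper-quartile scaling, 2 with DESeq2, 1 with a stricter filter, 2 with the replicate block and 0 to 2 over left-out wells. Over all genes, left-out wells gave 1220 (Day 60 replicate 3) to 2618 calls from Day 30 to Day 60 (2060), with 1259 without Day 60 replicate 1 and 1323 without Day 30 replicate 2. For the difference between intervals (1868) they gave 643 (Day 60 replicate 1) to 2221, with 774 without Day 60 replicate 3. The block gave 2474 calls over all genes from Day 30 to Day 60. Leaving out a well also leaves fewer samples, and the cause of the other changes was not tested. Of the verdicts on single genes, with the 32 pairs that changed sign left out, 1974 stayed on their side of the threshold, 77 were lost and 8 gained. No scaling moved the median of all genes by more than 0.1. Depth limits NQO1 most among the called genes, at 0.497 to 5.85 CPM.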
